A study of Mus musculus with 18 samples.

Results

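The T cell receptor (TCR) complex and the first steps of its signalling were followed through 9 genes, chosen by name: Cd3d, Cd3e, Cd3g and Cd247, which encode the CD3δ, CD3ε, CD3γ and ζ chains of the receptor complex, Cd4, Lck, Zap70, Lat and Cd5. Of the 15402 genes in the deposited table, these were 9, each with 1 row, and all 9 were among the 13190 genes tested, since their means lay far above the lowest mean log2 value of 3 that was required. They were measured in CD4+ T cells of female C57/BL6 mice that carried Foxp3Timer (the Foxp3-Tocky reporter) and Foxp3-IRES-GFP, so that all groups, controls included, came from double reporter animals. The mice had been sensitised with 3% oxazolone on the abdominal skin, and cells were sorted from draining lymph nodes on day 5. Timer is a fluorescent protein that is blue when made and turns red with age, and in these mice it reports Foxp3 transcription. Tnaive cells were CD44lo and Teff cells CD44hi, both negative for GFP and Timer. The 4 Timer+ populations were GFP+, and were Pers1 (labelled de novo Foxp3 expressers), Pers2 (maturing), PAt (mature) and Arrested (decaying). Pers1 and Pers2 are called persistent here. Each population had 3 replicates, each made from a pool of 3 mice, which gave 18 libraries. Per the methods of the study, mice sensitised in this way were 5 to 10 weeks old. CD4 protein was part of the sort, so the level of Cd4 RNA was measured in cells chosen for its protein.

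The TCR recognises peptide on MHC through its α and β chains, which have no signalling part of their own. The CD3 and ζ chains carry tyrosine motifs (ITAMs) that are phosphorylated by Lck, a kinase held on the tail of the CD4 coreceptor. ZAP-70, a second kinase, then docks on these motifs and phosphorylates the adaptor LAT, on which the downstream signalling complex is assembled. CD5 is a surface protein that dampens TCR signals, and its level on T cells is known to follow the strength of the signals that a cell receives. The constant regions of the antigen receptor chains (Trac, Trbc1 and Trbc2) were not analysed here.

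Values are log2 of normalised counts as deposited, of the kind that the regularised log of DESeq2 gives. No read counts were used, depth is therefore unknown, and the precision is that of the spread between replicates. Comparisons were made by limma in 1 linear model over the 18 libraries. SE is the standard error of a log2 fold change, and every adjusted p-value of a fold change below is limma's with Benjamini-Hochberg adjustment over the 13190 tested genes. A gene was called differentially expressed by the study's thresholds, which are an absolute log2 fold change over 1 together with an adjusted p under 0.05. Since nearly all changes of the members were smaller, genes past the adjusted p alone are also counted, as higher or lower, in each case beside the share of all tested genes that did the same. Where libraries of a member are said not to overlap between populations, this is a description. The share of all tested genes that separated alike is given only for Timer+ against Timer- libraries. In bulk samples, fewer cells of a type and less RNA per cell cannot be told apart. Foxp3 itself was at 14.42 to 14.82 in the means of the Timer+ populations and at 11.34 in Tnaive and 10.54 in Teff cells. The CD3 genes and Cd4, which mark CD4+ T cells, were at 13.49 or above in every library. Markers of other cells were also present, and most of these markers had their highest mean in Teff cells. Siglech, of plasmacytoid dendritic cells, was at 10.16 to 10.93 in Teff and at 4.57 or below in the other 15 libraries. The summed level of 4 B cell markers (log2) ran from 11.45 to 12.11 in Teff, 11.17 to 11.79 in PAt and Arrested, 10.43 to 10.70 in persistent and 9.39 to 9.84 in Tnaive libraries. For 2 CD8 T cell markers the summed level was 11.51 or above in Teff and 10.70 or below elsewhere. It was 8.95 to 9.11 in Teff and 8.02 or below elsewhere for 3 NK cell markers, 10.85 to 11.15 and 9.96 or below for 4 myeloid markers, and 11.79 to 12.30 and 11.11 or below for 3 markers of plasmacytoid dendritic cells. Single markers could go another way. The myeloid marker Itgam was at 8.24 to 8.41 in Teff, 8.35 to 8.54 in Tnaive, 8.12 to 8.95 in persistent and 6.17 to 6.74 in PAt and Arrested libraries. The B cell marker Cd79b was at 9.40 to 10.15 in Teff and 9.92 to 10.17 in PAt libraries. Of 3 γδ T cell markers 1 was analysed (Sox13), at 3.86 or below in every library. Their part in the results was not tested.

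The 3 CD3 genes lie together on chromosome 9 (GRCm38, GENCODE vM21). Cd3d (44981786 to 44987339, plus strand) and Cd3g (44969572 to 44980431, minus strand) are divergent neighbours whose starts are 1355 bp apart, and Cd3e (44998740 to 45009627, minus strand) starts 27841 bp from Cd3d. Cd247 (165788681 to 165877277) and Zap70 (36761798 to 36782818) lie on the plus strand of chromosome 1. The others lie on minus strands, Cd4 on chromosome 6 (124864692 to 124888221), Lck on chromosome 4 (129548344 to 129573641), Lat on chromosome 7 (126363824 to 126369570) and Cd5 on chromosome 19 (10717116 to 10739002). The 250 bases before the start of Cd3d and Cd3g are shown because these neighbours were measured side by side, and those of Cd247 because its levels followed another order than those of the CD3 genes. They are from RefSeq (GRCm38.p6), read 5′ to 3′ on the strand of the gene, with matches to 6 short motifs in capitals.
Cd3d, chr9:44981536-44981785, plus strand: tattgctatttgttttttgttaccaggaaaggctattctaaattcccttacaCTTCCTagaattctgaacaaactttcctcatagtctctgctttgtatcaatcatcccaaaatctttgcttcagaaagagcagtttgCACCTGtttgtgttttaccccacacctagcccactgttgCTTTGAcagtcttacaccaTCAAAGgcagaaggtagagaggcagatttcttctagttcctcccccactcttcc
Cd3g, chr9:44980432-44980681, minus strand: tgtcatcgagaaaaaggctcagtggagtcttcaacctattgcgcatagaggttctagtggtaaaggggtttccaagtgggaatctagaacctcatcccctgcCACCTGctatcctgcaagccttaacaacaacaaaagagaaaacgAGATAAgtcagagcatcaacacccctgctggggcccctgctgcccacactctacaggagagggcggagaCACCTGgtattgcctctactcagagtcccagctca
Cd247, chr1:165788431-165788680, plus strand: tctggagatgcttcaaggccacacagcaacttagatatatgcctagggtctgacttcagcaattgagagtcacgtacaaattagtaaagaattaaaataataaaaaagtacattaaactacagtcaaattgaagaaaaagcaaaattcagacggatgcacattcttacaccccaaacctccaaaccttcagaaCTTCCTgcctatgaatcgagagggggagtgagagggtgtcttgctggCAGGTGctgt

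The motifs, searched on both strands, were AGGAAG (ETS factors), TGTGGT (RUNX factors), CAGGTG (E proteins), CTTTGA (TCF and LEF factors), AGATAA (the motif of GATA factors) and GTAAACA (forkhead factors). None of these matches overlapped in the 3 windows. Cd3d held 1 ETS, 1 E protein and 2 TCF/LEF matches, Cd3g held 2 E protein matches and 1 GATA match, and Cd247 held 1 ETS and 1 E protein match. The neighbours Cd3d and Cd3g both held the E protein letters, at 112 bases before the start of Cd3d and at 148 and 35 bases before that of Cd3g. Cd247, Lck, Zap70 and Cd5 held these letters as well. Of all 32851 RefSeq windows of this length, 29.5% held the ETS letters, 17.2% the E protein letters, 14% the RUNX letters, 13.8% the TCF/LEF letters, 9.99% the GATA letters and 3.17% the forkhead letters. RefSeq windows were at hand for 8 of the 9 members. Of the 5 that are not printed, Cd3e held ETS matches only, as did Lat, while Cd5 held ETS and E protein matches. Lck, with 2 windows, held ETS, RUNX and E protein matches. Zap70, with 3 windows, held ETS, RUNX, E protein and TCF/LEF matches. The shares above are per window, so that a gene with more than 1 window had more chances of a match. Among the 11 windows of the 8 members, none held the forkhead letters. A match is a description of letters and not of binding.

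The members differed in how far they varied across the 6 populations. The range of population means was 0.21 on the log2 scale for Cd3e, 0.30 for Cd3g, 0.36 for Cd3d, 0.44 for Lck and for Lat, 0.63 for Cd5, 0.64 for Zap70, 0.93 for Cd247 and 1.19 for Cd4. Mki67, a gene of dividing cells, ran from 8.48 in Tnaive to 14.54 in Pers2 cells in the same libraries. The plot of the members' values by library shows that replicates of 1 population lay close together, and that each gene had its own order of populations.

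**Figure D1:**
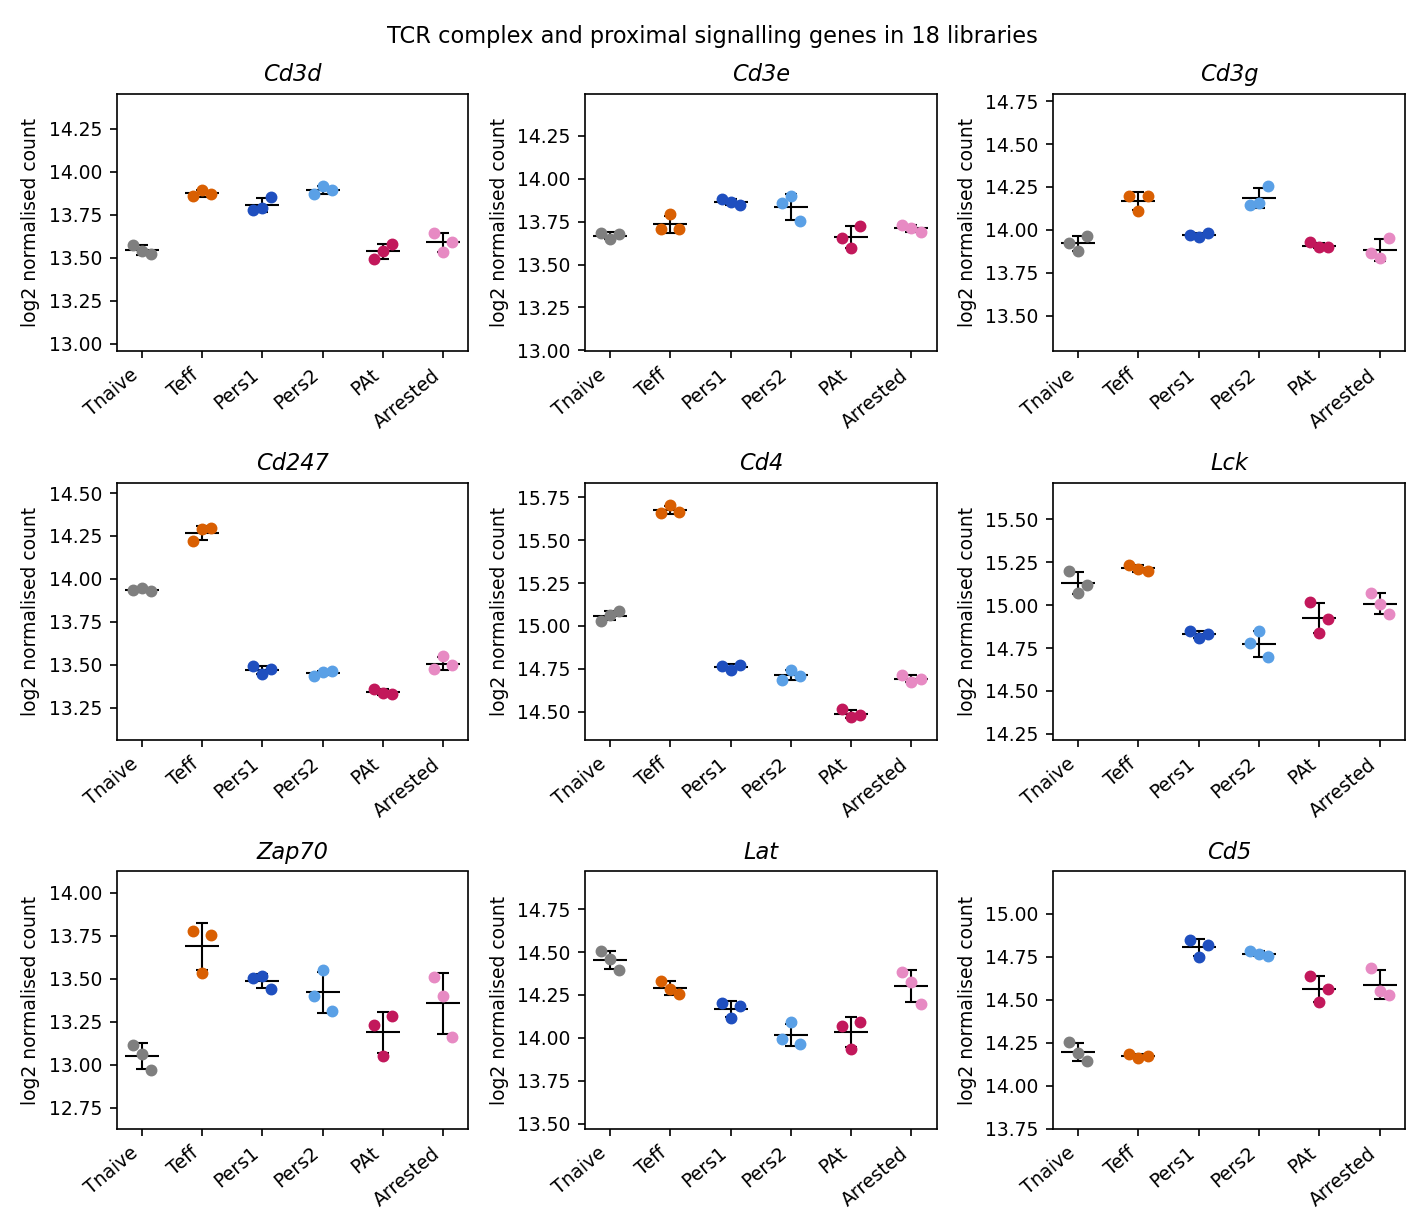
Log2 normalised counts (vertical axes, each spanning 1.5 log2 units) of the 9 members in the 6 populations (horizontal axes). Points are libraries, and horizontal marks with bars are means ± SD (n = 3). Cd4 was highest in Teff cells at 15.67 and lowest in PAt cells at 14.49, and Cd5 was between 14.49 and 14.85 in all 12 Timer+ libraries and at 14.25 or below in the others.

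Cd3d encodes the δ chain. Its values were 13.57, 13.54 and 13.52 in Tnaive, 13.86, 13.90 and 13.87 in Teff, 13.49, 13.54 and 13.58 in PAt, 13.64, 13.53 and 13.59 in Arrested, 13.78, 13.79 and 13.85 in Pers1 and 13.87, 13.92 and 13.90 in Pers2 libraries. All Teff and persistent libraries lay above all Tnaive, PAt and Arrested libraries. Cd3d rose by 0.33 from Tnaive to Teff cells (SE 0.042, adjusted p = 7.04e-07), and was higher by 0.29 in persistent than in PAt and Arrested cells (SE 0.029, adjusted p = 1.85e-08). Between persistent and Teff cells its log2 fold change was -0.023 (95% interval -0.098 to 0.052, adjusted p = 0.613). With libraries centred on their medians it was -0.084 (adjusted p = 0.0464).

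Cd3g, the γ chain, was at 13.92, 13.88 and 13.96 in Tnaive, 14.20, 14.11 and 14.20 in Teff, 13.93, 13.90 and 13.90 in PAt, 13.86, 13.83 and 13.95 in Arrested, 13.97, 13.96 and 13.98 in Pers1 and 14.15, 14.16 and 14.25 in Pers2 libraries. Pers2 and Teff libraries were the highest, and Pers1 libraries lay just above the PAt and Arrested libraries. Cd3g rose by 0.25 from Tnaive to Teff cells (SE 0.045, adjusted p = 7.96e-05). It was higher by 0.18 in persistent than in PAt and Arrested cells (SE 0.032, adjusted p = 3.14e-05), and by 0.21 in Pers2 than in Pers1 cells (SE 0.045, adjusted p = 0.00388). Between persistent and Teff cells its log2 fold change was -0.088 (95% interval -0.17 to -0.0072, adjusted p = 0.0573). It passed as lower with centred libraries (-0.15, adjusted p = 0.00229), under quantile normalisation (-0.15, adjusted p = 0.00474), with a trend on transcript GC content removed (-0.11, adjusted p = 0.00377), with the replicate number as a block (adjusted p = 0.0283), without Teff replicate 2 (-0.12, adjusted p = 0.0313) and without Pers2 replicate 3 (-0.11, adjusted p = 0.0268).

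Cd3e, the ε chain, had the smallest range. It was at 13.65 to 13.68 in Tnaive, 13.70 to 13.79 in Teff, 13.60 to 13.72 in PAt, 13.69 to 13.73 in Arrested, 13.85 to 13.88 in Pers1 and 13.75 to 13.90 in Pers2 libraries. The 6 persistent libraries lay above the 6 PAt and Arrested libraries, by 0.17 in the mean (SE 0.032, adjusted p = 0.000103). From Tnaive to Teff cells its log2 fold change was 0.066 (95% interval -0.029 to 0.16, adjusted p = 0.220), and with libraries centred on their medians it was -0.016. It was higher in persistent than in Teff cells by 0.12 (adjusted p = 0.0153), which was lost with centred libraries (0.056, adjusted p = 0.233), without Teff replicate 1 (adjusted p = 0.0695) and without Teff replicate 3 (adjusted p = 0.0734).

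Cd247 encodes the ζ chain, which carries the most ITAMs of the complex. Its values were 13.93, 13.95 and 13.93 in Tnaive, 14.22, 14.29 and 14.29 in Teff, 13.36, 13.34 and 13.33 in PAt, 13.47, 13.55 and 13.50 in Arrested, 13.49, 13.45 and 13.47 in Pers1 and 13.44, 13.46 and 13.46 in Pers2 libraries. All 12 Timer+ libraries lay below all 6 Timer- libraries, whereas the 3 CD3 genes overlapped between these groups. Cd247 rose by 0.33 from Tnaive to Teff cells (SE 0.038, adjusted p = 2.13e-07). It fell by 0.51 from Tnaive to PAt and Arrested cells (SE 0.033, adjusted p = 2.66e-11) and was lower in persistent than in Teff cells (log2 fold change -0.81, SE 0.033, adjusted p = 1.63e-14). Between persistent and PAt and Arrested cells its log2 fold change was 0.037 (95% interval -0.020 to 0.094, adjusted p = 0.233), and it turned to -0.028 with centred libraries and to -0.015 with a trend on transcript GC content removed. Within the latter pair, Cd247 was higher in Arrested than in PAt cells by 0.17 (SE 0.038, adjusted p = 0.0138). The exons of Cd247 overlap those of Pou2f1, a gene of the opposite strand, over 3007 bp or 56.4% of the exonic length. The library kit marked strand, but whether reads were counted by strand is not given in the sources used here, so reads of both genes may have been mixed. Pou2f1 was at 10.78 to 11.17 in persistent, 11.46 to 11.59 in Teff, 11.83 to 12.17 in PAt and Arrested and 12.01 to 12.20 in Tnaive libraries, and its part in the values of Cd247 was not tested.

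Cd4 encodes the coreceptor that brings Lck to the complex. Its values were 15.03, 15.07 and 15.09 in Tnaive, 15.66, 15.70 and 15.66 in Teff, 14.51, 14.47 and 14.48 in PAt, 14.72, 14.67 and 14.69 in Arrested, 14.76, 14.74 and 14.77 in Pers1 and 14.68, 14.75 and 14.71 in Pers2 libraries. Teff libraries were highest, Tnaive libraries next, and PAt libraries lowest, with no overlap between these populations. Cd4 fell by 1.08 on the log2 scale from Teff to PAt and Arrested cells (SE 0.034, 95% interval -1.15 to -1.01, adjusted p = 3.35e-16), or to 0.472 of its level. It rose by 0.61 from Tnaive to Teff cells (SE 0.039, adjusted p = 1.65e-11), and its log2 fold change was -0.47 from Tnaive to PAt and Arrested cells (SE 0.034, adjusted p = 1.60e-10) and -0.94 from Teff to persistent cells (SE 0.034, adjusted p = 2.12e-15). Persistent cells were above PAt and Arrested cells by 0.15 (SE 0.028, adjusted p = 8.67e-05). That difference lay mainly between the persistent cells and PAt, since Arrested libraries (14.67 to 14.72) overlapped with persistent ones (14.68 to 14.77), and Arrested cells exceeded PAt cells by 0.20 (SE 0.039, adjusted p = 0.00302). Teff libraries, in which Cd4 was highest, were also those with the most Siglech and with the highest summed levels of CD8 T cell, NK cell, myeloid and plasmacytoid dendritic cell markers.

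Lck, the kinase on the CD4 tail, was at 15.20, 15.07 and 15.12 in Tnaive, 15.23, 15.21 and 15.20 in Teff, 15.02, 14.84 and 14.92 in PAt, 15.07, 15.01 and 14.95 in Arrested, 14.85, 14.81 and 14.83 in Pers1 and 14.78, 14.85 and 14.70 in Pers2 libraries. Persistent libraries were the lowest, and 1 of the PAt libraries lay among them. Lck was lower in persistent than in PAt and Arrested cells (log2 fold change -0.17, SE 0.037, adjusted p = 0.000517) and than in Teff cells (log2 fold change -0.41, SE 0.046, adjusted p = 1.18e-07). From Tnaive to PAt and Arrested cells it was -0.16 (adjusted p = 0.00523), which was lost under quantile normalisation (-0.0061, adjusted p = 0.916). From Tnaive to Teff cells it was 0.083 (95% interval -0.027 to 0.19, adjusted p = 0.184), and 0.38 under quantile normalisation (adjusted p = 1.71e-06).

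Zap70 encodes the kinase that binds phosphorylated ITAMs. It was at 13.12, 13.06 and 12.97 in Tnaive, 13.78, 13.53 and 13.76 in Teff, 13.23, 13.05 and 13.28 in PAt, 13.51, 13.40 and 13.16 in Arrested, 13.50, 13.52 and 13.44 in Pers1 and 13.40, 13.55 and 13.31 in Pers2 libraries. Tnaive libraries were lowest but for 1 PAt library, and its SD of 0.18 in Arrested cells was the largest of any member in any population. Zap70 rose by 0.64 from Tnaive to Teff cells (SE 0.083, adjusted p = 1.08e-06), a linear increase of 55.8%. It was higher in persistent than in PAt and Arrested cells by 0.18 (SE 0.059, adjusted p = 0.00939), a call that was lost with centred libraries (0.12, adjusted p = 0.0874). The rise of 0.22 from Tnaive to PAt and Arrested cells (adjusted p = 0.0139) was lost with centred libraries (0.14, adjusted p = 0.101) and without Tnaive replicate 3 (0.18, adjusted p = 0.0831). Against Teff cells, Zap70 was lower in persistent cells (log2 fold change -0.24, adjusted p = 0.00790, and 0.0594 without Teff replicate 1) and in PAt and Arrested cells (-0.42, adjusted p = 4.99e-05).

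Lat encodes the adaptor that ZAP-70 phosphorylates. It was at 14.50, 14.46 and 14.40 in Tnaive, 14.33, 14.28 and 14.25 in Teff, 14.07, 13.93 and 14.09 in PAt, 14.38, 14.33 and 14.20 in Arrested, 14.20, 14.11 and 14.19 in Pers1 and 13.99, 14.09 and 13.96 in Pers2 libraries. Tnaive libraries were above all others. Lat fell by 0.29 from Tnaive to PAt and Arrested cells (SE 0.048, adjusted p = 3.60e-05), and was lower in persistent than in Teff cells (log2 fold change -0.20, SE 0.048, adjusted p = 0.00131). Its fall of 0.16 from Tnaive to Teff cells (adjusted p = 0.0148) was lost under quantile normalisation (-0.030, adjusted p = 0.631), without Tnaive replicate 1 (adjusted p = 0.0654) and without Teff replicate 3 (adjusted p = 0.0583). Arrested cells exceeded PAt cells by 0.27 (SE 0.055, adjusted p = 0.00567), and the libraries did not overlap. Persistent and PAt and Arrested cells differed by -0.075 (95% interval -0.16 to 0.0059, adjusted p = 0.0902), which passed with centred libraries (-0.14, adjusted p = 0.00344) and under quantile normalisation (-0.13, adjusted p = 0.00386), as it did without Pers2 replicate 2 (adjusted p = 0.0436), PAt replicate 2 (adjusted p = 0.0262) or Arrested replicate 3 (adjusted p = 0.0193).

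Cd5, the inhibitor of TCR signals, was at 14.25, 14.19 and 14.15 in Tnaive, 14.18, 14.16 and 14.17 in Teff, 14.64, 14.49 and 14.56 in PAt, 14.68, 14.55 and 14.53 in Arrested, 14.85, 14.75 and 14.82 in Pers1 and 14.78, 14.77 and 14.76 in Pers2 libraries. The libraries fell into 3 levels without overlap, with Tnaive and Teff at the bottom, PAt and Arrested in the middle and both persistent populations on top. Cd5 rose by 0.38 from Tnaive to PAt and Arrested cells (SE 0.043, adjusted p = 2.04e-07), and was higher by a further 0.21 in persistent cells (SE 0.035, adjusted p = 1.84e-05). It was higher in persistent than in Teff cells by 0.62 (SE 0.043, adjusted p = 8.77e-11), a linear increase of 53.2%. Between Teff and Tnaive cells its log2 fold change was -0.025 (95% interval -0.13 to 0.079, adjusted p = 0.687), and the sign turned to 0.083 under quantile normalisation.

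Timer+ and Timer- libraries were also set side by side without a test. Cd5 was the member with all 12 Timer+ libraries (14.49 to 14.85) above all 6 Timer- libraries (14.15 to 14.25), as for 3.38% of all tested genes. Cd247, Cd4 and Lck had all Timer+ libraries below, as for 2.57% of tested genes. For Cd247 the gap was from 13.55 to 13.93 and for Cd4 from 14.77 to 15.03, while for Lck the highest Timer+ value and the lowest Timer- value both rounded to 15.07. The other 5 members overlapped.

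The members were then counted together in each comparison. From Tnaive to Teff cells none of the 9 was called by the study's thresholds, where 11.2% of tested genes were. Without the fold threshold, 5 were higher (Cd3d, Cd3g, Cd247, Cd4 and Zap70), against 31.3% of tested genes, and 1 was lower (Lat), against 27.7%. Under quantile normalisation these were 6 higher and 0 lower. The median log2 fold change was 0.25 over the members and 0.00472 over all tested genes.

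From Tnaive to PAt and Arrested cells none of the members was called by the study's thresholds, against 7.9% of tested genes. On the adjusted p alone, 2 were higher (Zap70 and Cd5), against 26.9%, and 4 were lower (Cd247, Cd4, Lck and Lat), against 23.8%. With centred libraries 1 was higher and 5 were lower. The CD3 genes were near Tnaive levels, with log2 fold changes of 0.018 for Cd3d (95% interval -0.058 to 0.093), 0.016 for Cd3e (-0.066 to 0.098) and -0.025 for Cd3g (-0.11 to 0.056). The signs of these 3 values depended on the scaling, turning negative for Cd3d and Cd3e with centred libraries and positive for Cd3g under quantile normalisation, and with centred libraries Cd3g passed as lower (-0.10, adjusted p = 0.0284).

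Between persistent and PAt and Arrested cells, which differ in the dynamics of Foxp3 transcription, none of the members was called by the study's thresholds, against 7.51% of tested genes. Past the adjusted p alone, 6 were higher in persistent cells (Cd3d, Cd3e, Cd3g, Cd4, Zap70 and Cd5), against 35.9% of tested genes, and 1 was lower (Lck), against 35.1%. With centred libraries 5 were higher and 2 lower, and under quantile normalisation 6 and 2. The median was 0.17 over the members and -0.013 over all tested genes, and the members ran from -0.17 (Lck) to 0.29 (Cd3d).

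Between persistent and Teff cells, whose means of Cd44 were near each other (12.83 in Pers1, 13.03 in Pers2 and 13.05 in Teff), none of the members was called by the study's thresholds, against 8.31% of tested genes. Without the fold threshold, 2 were higher (Cd3e and Cd5), against 29.8%, and 5 were lower (Cd247, Cd4, Lck, Zap70 and Lat), against 28.9%. With centred libraries 1 was higher and 7 were lower. Between PAt and Arrested cells and Teff cells, 1 member was called, Cd4, against 6.88% of tested genes. On the adjusted p alone, 1 was higher (Cd5), against 24.8%, and 7 were lower (all but Cd3e and Cd5), against 27.9%. Lat was the least certain of these 7 (log2 fold change -0.12, adjusted p = 0.0372), and it did not pass without a variance trend (adjusted p = 0.0708), in a fit of these populations alone (0.0754), or without Teff replicate 1, Teff replicate 2, PAt replicate 2 or Arrested replicate 3 (adjusted p from 0.0771 to 0.150). Both of these comparisons share the Teff libraries, as does the one with Tnaive cells.

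Within pairs the fewest members passed. Between Pers2 and Pers1 none was called by the study's thresholds, against 0.19% of tested genes. Past the adjusted p alone, 1 was higher in Pers2 (Cd3g), against 6.02%, and 0 were lower, against 4.56%. Between Arrested and PAt none was called by the study's thresholds, against 0.121%. Without the fold threshold, 3 were higher in Arrested cells (Cd247, Cd4 and Lat), against 2.07% of tested genes, and 0 were lower, against 2.97%. In a fit of the PAt and Arrested libraries alone, none of these 3 passed, with adjusted p from 0.0826 for Lat to 0.201 for Cd247, and without Arrested replicate 2 Cd247 did not pass (adjusted p = 0.0831).

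**Figure D2:**
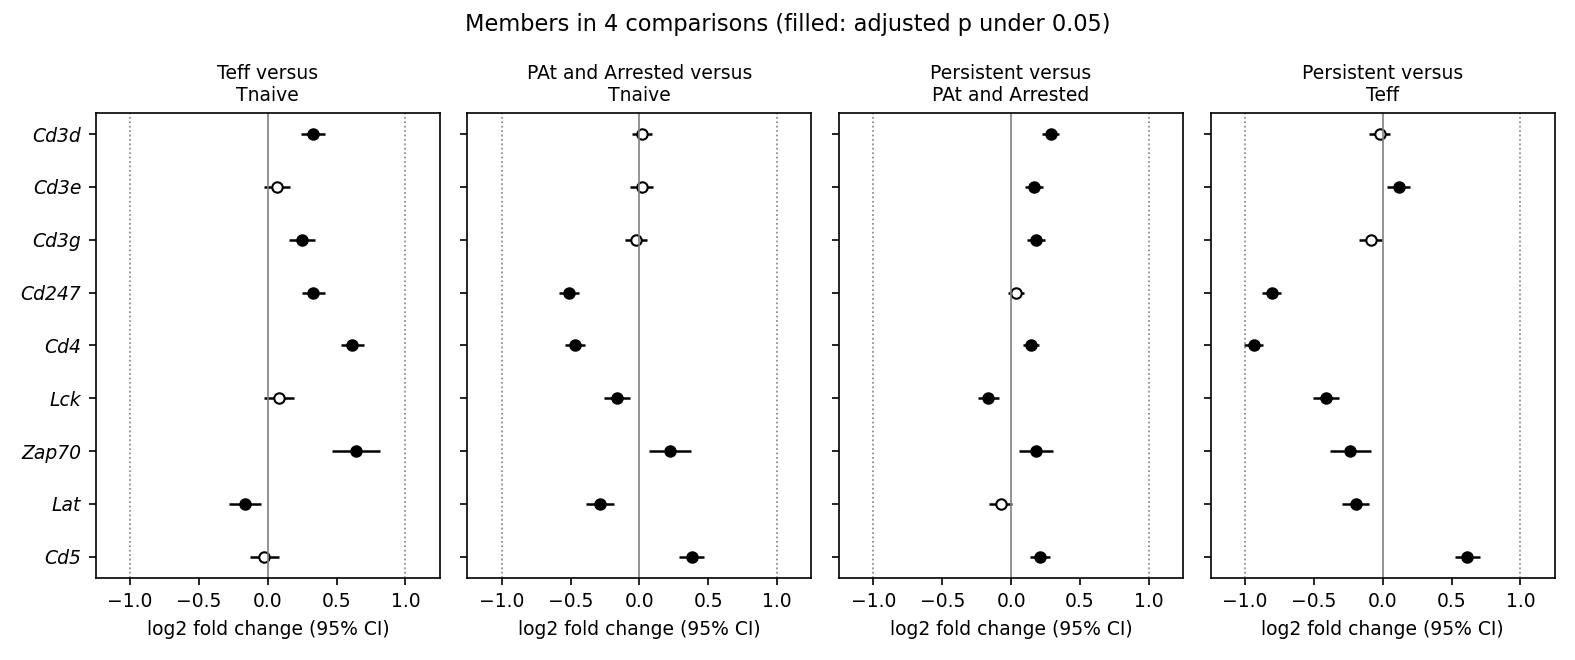
Log2 fold changes (horizontal axes) of the 9 members (rows) in 4 comparisons, with 95% intervals from limma. Filled points have an adjusted p under 0.05, and dotted lines mark the study's fold threshold. No member reached the dotted lines in these 4 comparisons, and the value furthest from 0 is that of Cd4 between persistent and Teff cells, -0.94. The comparison of PAt and Arrested with Teff cells, in which Cd4 passed the threshold at -1.08, is not shown.

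Shifts were compared between Timer+ and Timer- cells. The difference between persistent and PAt and Arrested cells was set against that between Teff and Tnaive cells. The difference of these shifts was tested as an interaction in the model. The Timer+ groups were sorted by Timer fluorescence and not by activation. Cd44 was at 11.70 to 12.05 in PAt and Arrested and at 9.47 to 9.72 in Tnaive libraries, so these groups were not at the same level of it. None of the members was called by the study's thresholds, against 8.42% of tested genes. On the adjusted p alone, the difference of shifts (Timer+ minus Timer-) was above 0 for 1 member (Cd5), against 23.2% of tested genes, and below 0 for 4 (Cd247, Cd4, Lck and Zap70), against 25.5%. These were 1 and 5 under quantile normalisation, 2 and 5 with the GC trend removed, and 3 and 5 with the replicate block as well. The difference of Cd3g was -0.064 (adjusted p = 0.361), and -0.20 under quantile normalisation (adjusted p = 0.00669). That of Lat was 0.088 (adjusted p = 0.298), 0.18 with the GC trend removed (adjusted p = 0.000503) and -0.10 under quantile normalisation. Lck shifted in opposite directions, by -0.17 among Timer+ and 0.083 among Timer- cells, of which the second did not pass by itself. For Cd4 the shift was 0.15 among Timer+ and 0.61 among Timer- cells, a difference of -0.47 (SE 0.048, adjusted p = 6.15e-08). For Zap70 it was 0.18 and 0.64, a difference of -0.46 (SE 0.10, adjusted p = 0.000825). Cd3d shifted by 0.29 and 0.33, a difference of -0.041 whose 95% interval ran from -0.15 to 0.066. The plot of the shifts against each other shows Cd3d near the diagonal, and Cd4 and Zap70 far to its right.

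**Figure D3:**
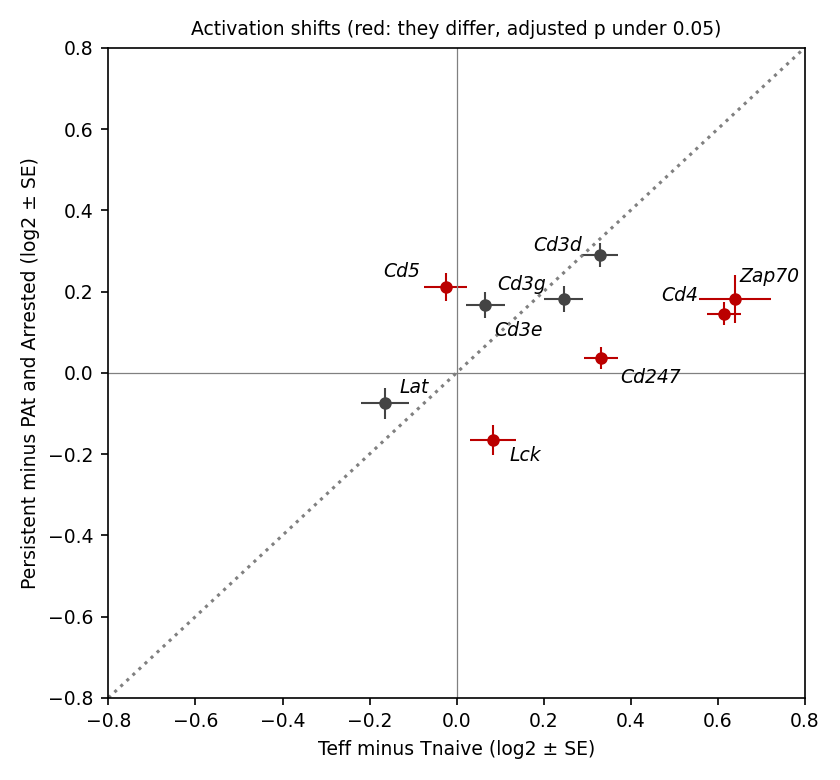
Difference between persistent and PAt and Arrested cells (vertical axis) against the difference between Teff and Tnaive cells (horizontal axis), in log2 ± standard error, for the 9 members. The dotted line marks equal shifts, and red points are members whose shifts differed with an adjusted p under 0.05. Cd4 lies at 0.61 on the horizontal and 0.15 on the vertical axis, and Lck is below 0 on the vertical axis at -0.17.

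Chains of the receptor complex, and the kinases Zap70 and Lck, were also compared within each library, which takes out any scaling of the whole library. It does not take out the differences between libraries that go with transcript GC content, described below, where 2 genes follow them unequally. The balances were not tested with a GC trend removed. The 6 persistent and the 6 PAt and Arrested libraries were compared in 4 differences of log2 values by exact permutation tests (924 splits, two-sided, smallest possible p 0.00216), adjusted over the 4. Zap70 minus Lck was -1.35 ± 0.043 (SD, n = 6) in persistent and -1.70 ± 0.10 in PAt and Arrested libraries, with no overlap. The difference was 0.35 (exact permutation p = 0.00216, adjusted p = 0.00866), so that the balance of the kinases lay further towards Zap70 in persistent cells. Cd3d minus Cd3e was 0.0016 ± 0.086 in persistent and -0.12 ± 0.048 in PAt and Arrested libraries (n = 6 each), a difference of 0.12 (exact permutation p = 0.0152, adjusted p = 0.0202). Cd247 minus Cd3e was -0.39 ± 0.053 and -0.26 ± 0.082 (n = 6 each), a difference of -0.13 (exact permutation p = 0.0152, adjusted p = 0.0202). Both of these balances overlapped between the groups. Cd3d minus Cd3e was -0.057 in Pers1, 0.060 in Pers2 and -0.12 in PAt and in Arrested cells. Cd3g minus Cd3e was 0.23 ± 0.16 and 0.21 ± 0.079 (n = 6 each), a difference of 0.016 (exact permutation p = 0.879, adjusted p = 0.879). Libraries of the same number were taken to come from the same pools. With libraries exchanged only within a number, the adjusted p was 0.0370 for Zap70 minus Lck and 0.0494 for Cd3d minus Cd3e and for Cd247 minus Cd3e (exact permutation over 216 splits, for which the smallest possible unadjusted p is 0.00926).

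The balances in Tnaive and Teff cells are given as values, without a test. In Teff cells, Cd247 minus Cd3e was 0.53 ± 0.049 and in Tnaive cells 0.27 ± 0.029 (SD, n = 3), and it was below 0 in all 12 Timer+ libraries. Cd3d minus Cd3e was -0.12 ± 0.028 in Tnaive and 0.14 ± 0.031 in Teff cells. Zap70 minus Lck was -2.08 ± 0.069 in Tnaive and -1.52 ± 0.13 in Teff cells. All 3 Tnaive libraries (-2.15 to -2.01) lay below and all 6 persistent libraries (-1.39 to -1.30) above the other libraries in this balance.

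**Figure D4:**
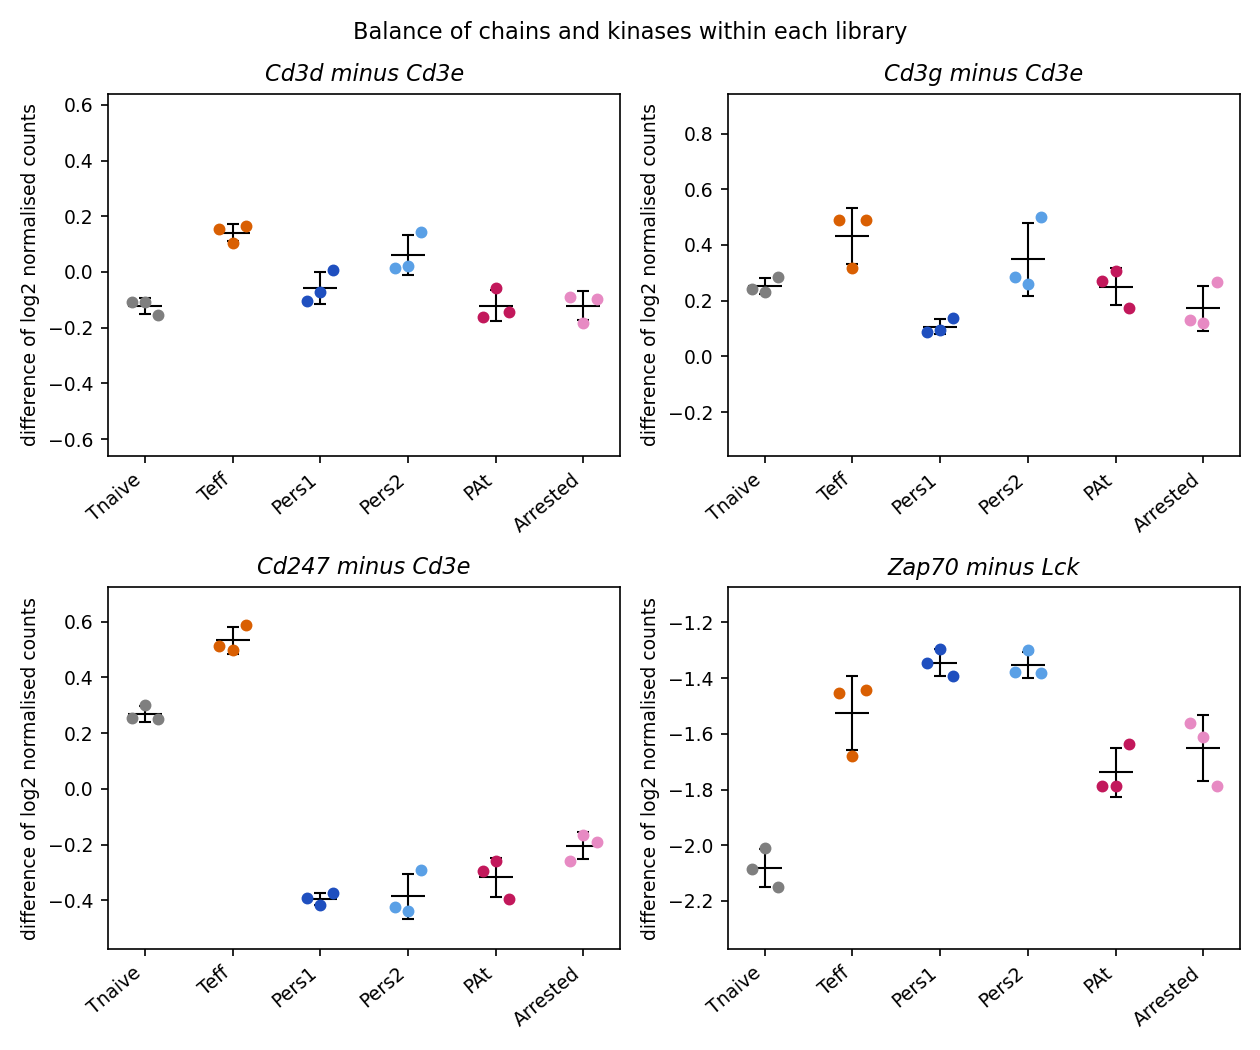
Differences of 2 members' log2 normalised counts within each library (vertical axes) in the 6 populations (horizontal axes). Points are libraries, and marks with bars are means ± SD (n = 3). Cd247 minus Cd3e was between 0.25 and 0.59 in Tnaive and Teff libraries and between -0.44 and -0.16 in Timer+ libraries.

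Levels can be compared between genes only per length, and were set on a scale of log2 normalised counts per kb of the median coding transcript. On that scale Cd3g was the highest member in all 6 populations, at 14.36 (Arrested) to 14.67 (Pers2), and Zap70 was the lowest in Tnaive cells at 12.62, while Cd247 was the lowest in the others, at 12.16 (PAt) to 13.09 (Teff). The order depends on the gene model. Per kb of all exonic sequence, Lck was the highest in all 6 populations, at 13.22 to 13.66, with Cd3g counted over 3269 bp in place of 717 bp. Cd247 was the lowest or next to lowest member in all 6 populations by either length.

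The genes with the most similar pattern were listed for each member by Pearson's r of log2 values over the 18 libraries, as a description of libraries that form 6 populations. Cd247 was most like Adcy7 (r = 0.992) and Inpp5b (0.989), and Cd4 came next (0.973). The first for the others were Adamts3 for Cd4 (0.986), Hipk2 for Cd5 (0.976), Podnl1 for Cd3d (0.973), Gramd1a for Lck (0.972), Arrb2 for Lat (0.944), Atg16l2 for Zap70 (0.941), H13 for Cd3e (0.929) and Zfp53 for Cd3g (0.921). Among the members themselves, r over the 18 libraries was 0.840 between Cd3d and Cd3g, 0.731 between Cd3d and Cd3e and 0.367 between Cd3e and Cd3g. Cd247 and Cd5 ran in opposite directions (r = -0.858). Cd247 had an r of -0.969 with Foxp3, on which the Timer+ and Timer- groups were sorted.

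The other genes of the pathway came from a list of 59, of which 56 were tested, grouped by role. From Tnaive to Teff cells 9 of the 56 were called higher and 1 lower, where 11.2% of all tested genes were called in either direction. Relatives of the members were among the largest changes. Fcer1g, the Fc receptor γ chain that can stand in for ζ in a receptor complex, was at 7.43 to 7.77 in Teff and at 4.68 or below in all other libraries, a log2 fold change of 3.31 (SE 0.15, adjusted p = 3.29e-14). Syk, the relative of ZAP-70 that B and myeloid cells use, was at 6.80 to 7.21 in Tnaive, 9.79 to 10.32 in Teff, 7.45 to 7.99 in persistent and 8.77 to 9.34 in PAt and Arrested libraries. It rose by 3.08 from Tnaive to Teff cells (SE 0.15, adjusted p = 2.08e-13) and by 2.06 from Tnaive to PAt and Arrested cells (SE 0.13, adjusted p = 1.88e-11), and was lower in persistent than in PAt and Arrested cells (log2 fold change -1.42, SE 0.11, adjusted p = 1.69e-10). B cell markers moved the same way. In Teff against Tnaive cells 4 of 4 were called higher (11.2% of all tested genes were called in either direction). Also 4 of 4 were called higher in PAt and Arrested than in Tnaive cells (7.9%), and 3 of 4 lower in persistent than in PAt and Arrested cells (7.51%). Of 4 myeloid markers, 1 was called higher and 1 lower in PAt and Arrested than in Tnaive cells. Between persistent and PAt and Arrested cells 1 of them was called higher in persistent cells and 0 lower. Cd8a, a coreceptor chain of CD8 T cells that some dendritic cells also carry, was higher in Teff than in Tnaive cells by 2.06 (SE 0.16, adjusted p = 3.95e-10). In the same comparison 2 of 3 markers of NK cells, 2 of 4 of myeloid cells and 2 of 3 of plasmacytoid dendritic cells were called higher. The share of all tested genes called there was again 11.2%. The part of other cells in Fcer1g, Syk and Cd8a was not tested.

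Among kinases and their regulators, 2 of 13 were called higher and 1 lower from Tnaive to Teff cells, beside the same 11.2% of all tested genes. Unc119, an activator of Lck, rose by 2.14 from Tnaive to Teff cells (SE 0.075, adjusted p = 7.14e-16) and by 1.799 from Tnaive to PAt and Arrested cells (SE 0.065, adjusted p = 1.11e-15). Ptprc (CD45), the phosphatase that keeps Lck ready, had population means of 16.35 (PAt and Arrested) to 16.81 (Teff). It rose by 0.32 from Tnaive to Teff cells (adjusted p = 0.000335) and was lower in PAt and Arrested than in Tnaive cells (log2 fold change -0.14, adjusted p = 0.0463). Ptpn7 was higher in persistent than in PAt and Arrested cells by 1.04 (SE 0.041, adjusted p = 4.72e-15).

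Of 18 adaptors, 3 were called higher and 0 lower from Tnaive to Teff cells (11.2% of all tested genes), and 0 were called in either direction between persistent and PAt and Arrested cells (7.51%). Lcp2 (SLP-76), the partner of LAT, was higher by 0.46 in persistent than in PAt and Arrested cells (adjusted p = 1.23e-11), short of the fold threshold. Themis, an adaptor of T cell development, had means of 12.67 in Tnaive and 12.73 in Teff cells and of 10.55 to 11.12 in the Timer+ populations. It fell by 1.74 from Tnaive to PAt and Arrested cells (SE 0.077, adjusted p = 3.54e-14), and was lower in persistent than in Teff cells (log2 fold change -2.04, adjusted p = 3.58e-15).

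Of 11 effectors 1 was called higher and 0 lower between persistent and PAt and Arrested cells (7.51% of all tested genes). That was Malt1, a protease of NF-κB signalling, at 13.47 to 13.70 in persistent, 14.04 to 14.16 in Teff, 12.30 to 12.64 in PAt and Arrested and 12.52 to 12.70 in Tnaive libraries (log2 fold change 1.15, SE 0.043, adjusted p = 2.41e-15). Plcg1, the phospholipase recruited by LAT, was lower in persistent than in PAt and Arrested cells (log2 fold change -0.32, adjusted p = 1.32e-08). Of 8 downstream inhibitors none was called in the comparisons of populations. The shifts among Timer+ and among Timer- cells differed by the study's thresholds for 7 of the 56 genes, against 8.42% of all tested genes in either direction. All 7 differences (Timer+ minus Timer-) were below 0, 2 of them of CD8 coreceptor chains and 2 of relatives of the members (Syk and Fcer1g). The share of all tested genes below 0 by these thresholds is not given, so the direction is not read as a trait of the pathway. The 4 furthest from 0 were those of Syk (-4.50), Fcer1g (-3.31), Cd8a (-3.22) and Unc119 (-1.43). Syk and Cd8a shifted in opposite directions, by -1.42 and -1.16 among Timer+ and by 3.08 and 2.06 among Timer- cells, while Unc119 shifted by 0.72 and 2.14. Between persistent and PAt and Arrested cells 2 of the 56 were called higher and 2 lower, where 7.51% of all tested genes were called. In persistent cells 0 were higher and 5 lower than in Teff cells (8.31% of all tested genes), and in PAt and Arrested cells 0 were higher and 6 lower than in Teff cells (6.88%). These shares by the study's thresholds count both directions together. Between Pers2 and Pers1, and between Arrested and PAt, 0 were called in either direction by the study's thresholds, while by the adjusted p alone 4 were higher and 7 lower in the first pair (6.02% and 4.56% of all tested genes) and 10 higher and 0 lower in the second (2.07% and 2.97%).

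Libraries of 1 population also differed from each other in a way that touched some members. Across 11883 genes with a GC value (90.1% of those tested), the deviation of a library from its population's mean was correlated with the GC content of the longest coding transcript, by -0.55 (Arrested replicate 3) to 0.44 (Pers2 replicate 2). Lat, Zap70, Cd5 and Lck have transcripts of 57.9%, 59.6%, 56.8% and 54.3% GC, against a median of 50.3% over these genes, and Cd247 has 44.4%. Over the 18 libraries, the deviations of Lat had an r of 0.936 with that GC correlation, those of Zap70 0.871, of Lck 0.826 and of Cd5 0.687. Cd3e, whose transcript has 50.5% GC, near the median, had an r of 0.696 and Cd3g (47.1% GC) one of -0.551, while r was 0.183 for Cd3d, 0.171 for Cd4 and 0.0425 for Cd247. GC content also went with a difference between populations. Across the same genes, its r with the log2 fold change from PAt to Arrested cells was 0.213. In the other comparisons this r ran from -0.091 to 0.061. Deviations of Lat, Zap70, Lck and Cd5 were correlated with each other by 0.598 (Zap70 and Cd5) to 0.807 (Zap70 and Lat), and by -0.153 to 0.285 after a trend on GC was taken out of each library. These are descriptions over libraries that share pools. With that trend removed, the calls of the members by the study's thresholds were the same, and Cd247, Cd4 and Lat still passed the adjusted p as higher in Arrested than in PAt cells. Below the fold threshold, 4 values gained an adjusted p under 0.05, among them Lat as lower in Pers2 than in Pers1 cells (-0.16, adjusted p = 0.00146), where it had been -0.15 with an adjusted p of 0.0873.

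**Figure D5:**
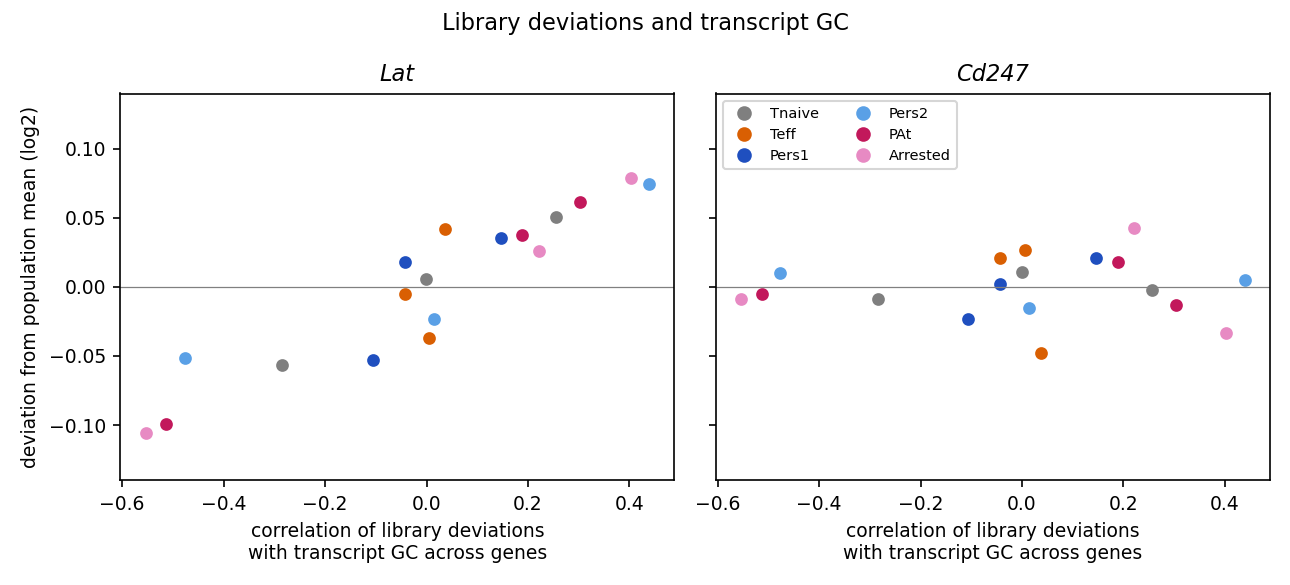
Deviation of Lat and of Cd247 from the population mean (vertical axes, log2) against the correlation, across genes, of a library's deviations with transcript GC content (horizontal axes). Points are the 18 libraries, coloured by population. Lat rises along the axis (r = 0.936), and Cd247 does not (r = 0.0425).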

How the data were processed

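RNA-seq of 18 libraries (6 populations of sorted CD4+ T cells, 3 replicates each) was used. Per the labels and the study's methods, the authors prepared libraries with a kit that keeps strand, aligned pairs of 100 bp reads with TopHat2 to mm10 and normalised with DESeq2. The submitters' processing notes name TopHat2 2.0.9, CASAVA 1.8.2 and FastQC 0.11.2. For 15402 genes the deposited values are log2 normalised counts that look like DESeq2's regularised log, a transform that shrinks changes of low genes. Depth is unknown, as no read counts were used.

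The values were used as deposited, with no pseudocount. Genes with a mean of at least 3 (13190, with 2212 left out) were fitted in limma 3.58.1 (R 4.3.3) with the 6 populations as groups, a variance trend and 12 residual degrees of freedom. The model was tested on simulated data with log2 changes of 1.5 or 2 in 200 genes, of which 200 were recovered each time. Changes as small as those of the members were not simulated. The members, the pathway and marker lists and the comparisons were chosen with earlier results of these data known. Besides the members, the text names pathway genes called in a comparison (at most the 4 largest changes in each), Ptprc, Lcp2 and Plcg1 whatever their values, Foxp3, Mki67 and Cd44, and up to 3 most similar genes per member. Siglech, Sox13, Itgam, Cd79b and Pou2f1 were named after their values were seen. Some genes that this rule would name are not reported here. Gene models came from GENCODE vM21. Python 3.11.15 with matplotlib 3.10.9 drew the figures.

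The fits were unpaired, with no block, as the study's methods name none. In the fits with a replicate block and in a second permutation test of the balances, libraries with the same number were taken as paired, since the deposited description has all populations sorted from each pool, although neither source states that a number marks 1 pool. Deviations from population means had a median correlation of 0.166 in 45 pairs of libraries with the same number (32 of them above 0.1) and of -0.064 in 90 pairs with different numbers. Alternatives to the filter, the scaling, the variance trend, the threshold and the libraries in the fit were run, as were fits with the replicate block and fits that left out 1 library. Removal of a GC trend was chosen after seeing the data.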

Additional observations from a re-analysis of the deposited data

Results flagged for a closer look

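The shift between persistent and PAt and Arrested cells differed from that between Teff and Tnaive cells for 5 members, by the interaction term of the limma model. The difference was -0.30 for Cd247 (0.037 among Timer+ and 0.33 among Timer- cells, adjusted p = 2.52e-05), -0.47 for Cd4 (0.15 and 0.61, adjusted p = 6.15e-08), -0.25 for Lck (-0.17 and 0.083, adjusted p = 0.00317), -0.46 for Zap70 (0.18 and 0.64, adjusted p = 0.000825) and 0.24 for Cd5 (0.21 and -0.025, adjusted p = 0.00297). Over all alternatives and fits that left out 1 library, these differences ran from -0.43 to -0.28 for Cd247, -0.68 to -0.45 for Cd4, -0.47 to -0.21 for Lck, -0.54 to -0.35 for Zap70 and 0.17 to 0.31 for Cd5, and each adjusted p was at most 0.0180. The Teff libraries, which enter all 5 differences, had the highest summed levels of CD8 T cell, NK cell, myeloid and plasmacytoid dendritic cell markers, whose part was not tested.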

How the results depend on the processing

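The number of members called by the study's thresholds was the same in 146 of 154 counts under alternatives, those with the replicate block, with the GC trend removed and with 1 library left out included (0, or 1 for PAt and Arrested versus Teff, in every fit that left out 1 library). It moved with the adjusted p alone, to 6 (Teff versus Tnaive), 6 (PAt and Arrested versus Tnaive), 7 (persistent versus PAt and Arrested), 7 (persistent versus Teff), 8 (PAt and Arrested versus Teff), 1 (Pers2 versus Pers1), 3 (Arrested versus PAt) and 5 (difference of shifts), as the fold threshold alone separates these counts. With the replicate block, 992 genes were called between persistent and PAt and Arrested cells, against 990 without it. Among the members it added Cd3g as lower in persistent than in Teff cells (-0.088, adjusted p = 0.0283 against 0.0573, a value that also passed at -0.15 under both scalings) and changed no other call. Without 1 library, Cd3d minus Cd3e ran from 0.095 to 0.14, Cd247 minus Cd3e from -0.16 to -0.11, Zap70 minus Lck from 0.33 to 0.37 and Cd3g minus Cd3e from -0.039 (without Pers2 replicate 3) to 0.044, with -0.0021 without Arrested replicate 2. Of 1314 fold changes of members under alternatives, 1251 kept their direction and side of the adjusted p, 21 lost and 25 gained a call, and 17 turned sign, none of them past the threshold otherwise. With centred libraries the turned values were -0.016 for Cd3e (Teff versus Tnaive), -0.061 for Cd3d and -0.062 for Cd3e (PAt and Arrested versus Tnaive), -0.028 for Cd247 (persistent versus PAt and Arrested) and 0.0022 for Cd3g (Arrested versus PAt). Under quantile normalisation they were 0.083 for Cd5 (Teff versus Tnaive), 0.055 for Cd3g (PAt and Arrested versus Tnaive), 0.0093 for Cd247 (Pers2 versus Pers1) and -0.10 for Lat (difference of shifts). With the GC trend removed, a choice made after seeing the data, and also with the replicate block, they were -0.015 for Cd247 (persistent versus PAt and Arrested) and -0.013 for Cd5 (Arrested versus PAt). Without 1 library, Cd5 ran from -0.050 to 0.0027 (Teff versus Tnaive) and from -0.023 to 0.063 (Arrested versus PAt), and Cd3e from -0.059 to 0.012 (Pers2 versus Pers1). The cause of these moves was not tested. Depth is unknown, and 3 pools per population limit what could be detected: 95% intervals of members had widths of ± 0.057 to ± 0.21.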
